A study of Mus musculus with 9 samples.

Results

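Interleukin-1 beta (Il1b), the neutrophil chemokine Cxcl2 and 8 other inflammatory mediators and regulators of the NF-kB pathway were followed across the sorted innate lymphoid cell (ILC) samples of mouse skin. The genes were taken by name, with earlier results of these data known. They were the cytokines Il1b, Il1a, Tnf and Il6, the chemokines Cxcl1 and Cxcl2, the NF-kB subunit Nfkb1, and the regulators Nfkbia, Nfkbiz and Tnfaip3. Of these 10 genes, 9 had a probe set under their symbol in the array's platform annotation, 1 set each, among 24922 probe sets and 19752 named genes in all. Nfkb1 had none and was not analysed here. Il1a lay below the limit on dim probe sets, so 8 genes were tested.

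All samples came from the skin of female B6 mice with EGFP at one Ccr10 allele (CCR10+/EGFP), a reporter of the chemokine receptor CCR10. In one genotype Rag1 was intact, here called Rag1-sufficient, and in the other the same reporter was carried on Rag1-/-, which lacks the recombinase that T and B cells need for their antigen receptors. CD45.2+ cells negative for CD3 and for a lineage panel (CD3, CD5, CD11b, B220, 7-4, Gr-1 and a Ter antigen) were sorted into GFP+ and GFP- fractions directly into Trizol, and the panel held no mast cell antibody. Each sample was run on 1 Affymetrix array. The Rag1-sufficient genotype was sampled with 2 arrays per fraction, and the Rag1-/- genotype with 2 arrays of GFP+ and 3 of GFP- cells. The labels give neither ages nor whether replicates were separate animals. A p-value here therefore reflects the scatter among the arrays, part or all of which can be technical.

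NF-kB is a family of transcription factors held in the cytoplasm by IkB proteins. Signals from interleukin-1, tumour necrosis factor or microbial products lead to the degradation of IkB, after which NF-kB enters the nucleus and switches on cytokines, chemokines and its own inhibitors. Interleukin-1 beta is made as an inactive precursor that is cut before release, Cxcl1 and Cxcl2 draw neutrophils through the receptor Cxcr2, and in skin these mediators are made by myeloid cells, mast cells and keratinocytes after injury or infection. Nfkbia encodes IkB alpha, Nfkbiz a nuclear IkB protein, and Tnfaip3 the enzyme A20, which shuts the pathway down.

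The sequence just upstream of the start site is shown for Cxcl2, Cxcl1 and Nfkbia, which hold the same kappaB match, and for Il1b, the gene with the largest difference, which holds none. Each line gives the 250 bases before the start in RefSeq's GRCm38.p6, 5′ to 3′ on the gene's strand, at chr5:90903649-90903898 (plus strand) for Cxcl2, chr5:90890995-90891244 (plus strand) for Cxcl1, chr12:55492648-55492897 (minus strand) for Nfkbia and chr2:129371140-129371389 (minus strand) for Il1b. Capitals mark kappaB matches in the first 3 and the letters TATAAA in Il1b.
Cxcl2: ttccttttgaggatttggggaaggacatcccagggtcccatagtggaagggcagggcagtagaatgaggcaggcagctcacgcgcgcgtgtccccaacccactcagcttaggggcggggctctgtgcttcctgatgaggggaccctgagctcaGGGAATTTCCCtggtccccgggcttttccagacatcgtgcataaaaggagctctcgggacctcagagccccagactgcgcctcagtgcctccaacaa
Cxcl1: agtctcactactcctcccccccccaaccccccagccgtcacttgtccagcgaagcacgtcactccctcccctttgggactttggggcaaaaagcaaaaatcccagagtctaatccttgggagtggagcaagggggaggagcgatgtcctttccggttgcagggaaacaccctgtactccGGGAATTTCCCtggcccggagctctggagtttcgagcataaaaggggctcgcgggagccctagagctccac
Nfkbia: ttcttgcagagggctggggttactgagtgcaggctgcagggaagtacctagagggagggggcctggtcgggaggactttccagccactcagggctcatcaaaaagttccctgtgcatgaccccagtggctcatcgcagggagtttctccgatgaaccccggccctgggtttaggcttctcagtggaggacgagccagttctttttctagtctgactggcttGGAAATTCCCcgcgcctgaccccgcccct
Il1b: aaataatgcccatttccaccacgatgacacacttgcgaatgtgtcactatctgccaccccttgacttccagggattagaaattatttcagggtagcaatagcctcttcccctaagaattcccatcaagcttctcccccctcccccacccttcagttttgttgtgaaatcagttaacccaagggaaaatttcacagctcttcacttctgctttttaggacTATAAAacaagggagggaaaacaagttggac

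Windows were present for 8 of the 10 genes. They were searched on both strands for the kappaB consensus, for its stricter form, GGGA followed by any base and TTTCC (a special case of the consensus, so the same letters count in both), and for TATAAA. The stricter form was found upstream of 4 of these 8 genes (Cxcl2, Cxcl1, Il6 and Nfkbia), against 0.356% of 32851 mouse promoter windows of the same length. The looser consensus was found in 5, the same genes and Tnfaip3, against 7.25% of all windows. In Cxcl2 the stricter match lay 97 to 88 bases before the start and in Cxcl1 71 to 62 bases before it, and in both the run continued by 1 base to the same 11 letters, GGGAATTTCCC. Nfkbia held its match on the opposite strand, 29 to 20 bases before the start. Il1b held TATAAA 31 to 26 bases before the start. TATAAA was also found in Il1a, Tnf and Tnfaip3, and in 12.4% of all windows. Cxcl1 and Cxcl2 are neighbours in the genome with 0 annotated genes between them, and Il1a and Il1b lie on one chromosome with 2 predicted genes between. A match is a stretch of letters, and binding was not measured.

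Values are the deposited probe set intensities on a linear scale, and differences are on the log2(intensity + 1) scale with their SE from a limma fit. The arrays had medians between 74.1 and 77.6. A gene passed where its limma p, adjusted by Benjamini-Hochberg over 17445 probe sets, was under 0.05. ILC transcripts were bright in every sample, with 11 ILC markers summing to between 29466 and 33358 on each array. Single ILC markers did differ in level: between the Rag1-sufficient fractions 2 of the 11 had GFP+ arrays wholly above the GFP- arrays (29.0% of all probe sets) and 6 wholly below (21.2%), and 0 passed (0.803%). Among them, Thy1 read 5025 and 5227 in GFP+ and 3453 and 3121 in GFP- cells, and Gata3, a transcription factor of group 2 ILCs, 2263 and 2813 against 3614 and 3881. Whether these shifts had a part in the results was not tested. Rag1-/- GFP+ replicate 1 stood apart: its rank correlation was 0.987 with Rag1-sufficient GFP- replicate 1 and 0.981 with its own replicate. It also had a summed mast cell marker intensity of 5246, against 1658 in its replicate. In bulk samples such as these, fewer cells of a type and less RNA per cell cannot be told apart.

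**Figure D1:**
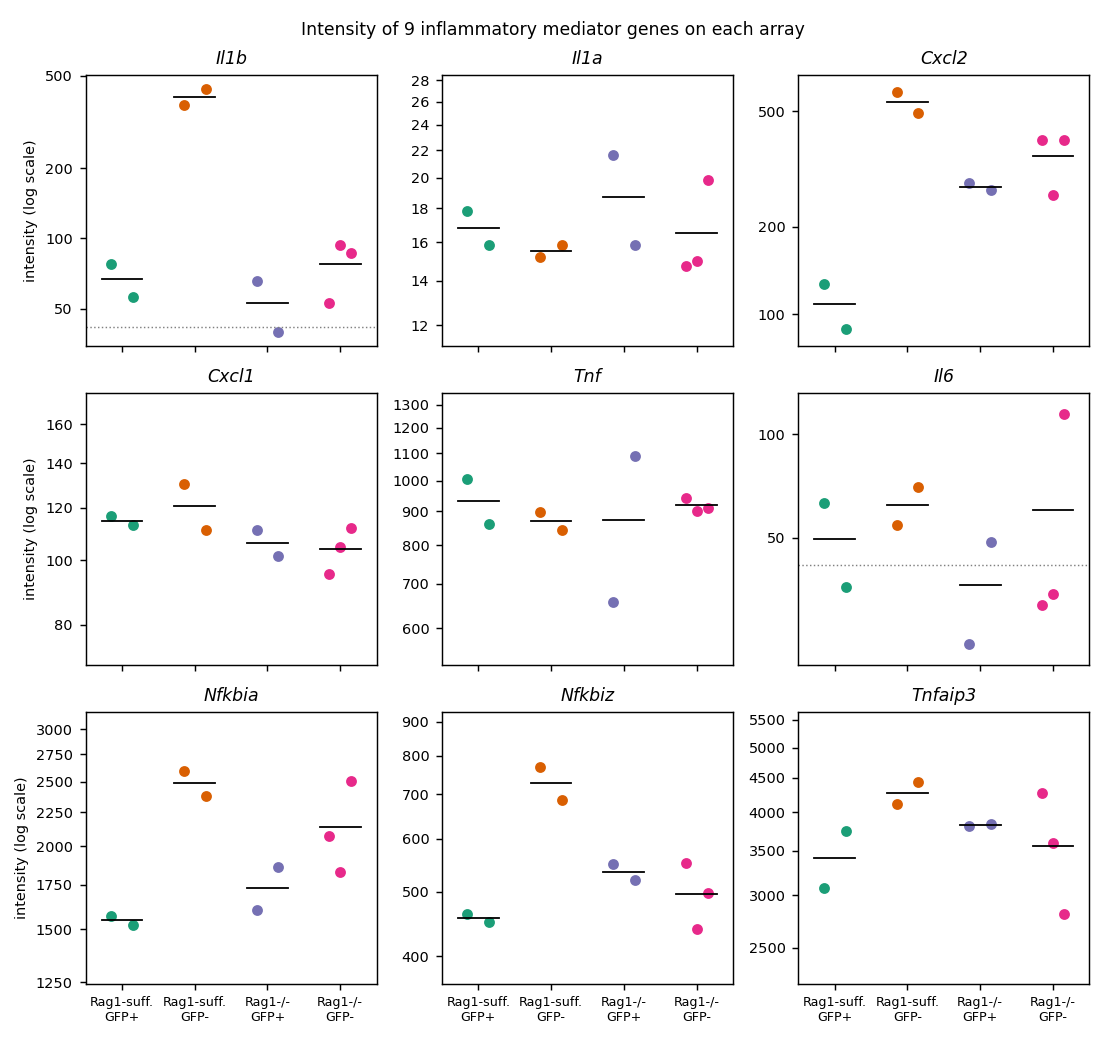
Intensity (log scale, each panel with its own range) of the 9 measured genes on each of the 9 arrays, by genotype and sorted fraction; points are arrays, bars are group means and the dotted line is the limit of 41.6 on dim probe sets where it falls inside a panel. Il1b stands high only on the 2 Rag1-sufficient GFP- arrays, Cxcl2 stands low on the 2 Rag1-sufficient GFP+ arrays, and Tnf and Cxcl1 show no such separation.

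Among the cytokines, Il1b was bright in a single group, the GFP- cells of Rag1-sufficient mice. Il1b read 373 and 439 there, 77.5 and 56.0 in Rag1-sufficient GFP+ cells, 65.5 and 39.6 in Rag1-/- GFP+ cells, and 53.1, 94.1 and 86.6 in Rag1-/- GFP- cells. The lowest array of the bright group lay above every other array by 279 units, while the ranges of the other 3 groups overlapped one another. In order of group mean, Rag1-sufficient GFP- (406 ± 47.1, SD, n = 2) was followed by Rag1-/- GFP- (77.9 ± 21.8, n = 3), Rag1-sufficient GFP+ (66.7 ± 15.2, n = 2) and Rag1-/- GFP+ (52.6 ± 18.3, n = 2), and the last 3 could not be ordered beyond their spread.

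Cxcl2, the chemokine that calls in neutrophils, followed another pattern, with a single dim group. It read 127 and 89.2 in Rag1-sufficient GFP+ cells, against 581 and 491 in Rag1-sufficient GFP- cells, 283 and 267 in Rag1-/- GFP+ cells and 397, 256 and 397 in Rag1-/- GFP- cells. Both Rag1-sufficient GFP+ arrays lay below the other 7, and both Rag1-sufficient GFP- arrays lay above them. The Rag1-/- fractions overlapped, with means of 275 ± 11.1 (SD, n = 2) for GFP+ and 350 ± 81.0 (n = 3) for GFP-. Its neighbour Cxcl1, a ligand of the same receptor, stayed between 95.4 and 130 on all 9 arrays, with group means from 104 ± 8.15 (n = 3) in Rag1-/- GFP- to 121 ± 13.5 (n = 2) in Rag1-sufficient GFP- cells. From the lowest to the highest array Cxcl1 spanned 1.36-fold and Cxcl2 6.52-fold.

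The other cytokines did not follow either pattern. Tnf, the central inducer of NF-kB, read 1006 and 861 in Rag1-sufficient GFP+ cells, 897 and 843 in Rag1-sufficient GFP-, 657 and 1088 in Rag1-/- GFP+, and 943, 900 and 910 in Rag1-/- GFP- cells. The lowest and the highest Tnf values of the series were the 2 Rag1-/- GFP+ replicates, and every pair of neighbours in the order of means overlapped. Il6, which drives the acute phase response, was dim and scattered: 63.1 and 35.9, then 54.6 and 70.1, then 24.5 and 48.4, then 31.9, 34.2 and 114, in the same order of groups. Only 5 of the 9 arrays read Il6 above the limit of 41.6 units, and its highest value came from Rag1-/- GFP- replicate 3 alone. Il1a, the second interleukin-1 ligand, read between 14.7 and 21.6 on all arrays, below that limit, and was left untested.

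The inhibitors were bright on every array and varied far less than Il1b. Nfkbia read 1572 and 1525 in Rag1-sufficient GFP+ cells, 2593 and 2381 in Rag1-sufficient GFP-, 1606 and 1859 in Rag1-/- GFP+, and 2073, 1827 and 2509 in Rag1-/- GFP- cells. Like Cxcl2, it was lowest on the 2 Rag1-sufficient GFP+ arrays. Nfkbiz read 463 and 450, then 770 and 686, then 551 and 520, then 552, 439 and 498, again in that order of groups. Both Rag1-sufficient GFP- arrays lay above the other 7 for Nfkbiz, whereas its other groups overlapped except for the Rag1-sufficient and Rag1-/- GFP+ arrays. Tnfaip3 read between 2815 and 4436, with 4115 and 4436 in Rag1-sufficient GFP- cells, 3079 and 3744 in Rag1-sufficient GFP+, 3807 and 3837 in Rag1-/- GFP+, and 4272, 3592 and 2815 in Rag1-/- GFP- cells. Its 3 Rag1-/- GFP- arrays covered most of that range.

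The first comparison asked how CCR10+ cells differed from CCR10- cells where Rag1 was intact. Il1b fell by 2.60 ± 0.31 in GFP+ cells (6.07-fold, adjusted p = 0.0106) and Cxcl2 by 2.32 ± 0.25 (4.98-fold, adjusted p = 0.0101). These 2 of the 8 tested genes passed, both lower, where 0.470% of all probe sets passed as lower and 0.803% in either direction. Nfkbia differed by -0.68 ± 0.16 and Nfkbiz by -0.67 ± 0.16, each with an adjusted p of 0.126. Tnfaip3 differed by -0.33 ± 0.18 (adjusted p = 0.518). For Il1b, Cxcl2, Nfkbia, Nfkbiz and Tnfaip3, 5 of 8 genes, both GFP+ arrays lay below both GFP- arrays, where 21.2% of all probe sets did so. The remaining 3 had intervals that included 0: Cxcl1 at -0.07 (95% interval -0.34 to 0.21), Tnf at 0.10 (-0.42 to 0.61) and Il6 at -0.37 (-1.71 to 0.97). The interval of Cxcl1 thus left out a difference of the size seen for Cxcl2, while that of Il6 was wide. The median over the 8 genes was -0.52, against 0.01 over all probe sets tested. Because the genes were chosen with earlier results of these data known, such shares and medians, here and below, are descriptions and not independent support.

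Both calls rested on all 4 Rag1-sufficient arrays. When replicate 1 or 2 of the GFP+ arrays was left out, the adjusted p of Il1b was 0.0776 or 0.110, and when replicate 1 or 2 of the GFP- arrays was left out it was 0.0780 or 0.147, with differences from -2.83 to -2.37. For Cxcl2 these values were 0.0524, 0.0960, 0.0780 and 0.115, with differences from -2.57 to -2.07, and 0.0526 where only the 4 compared arrays were fitted.

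**Figure D2:**
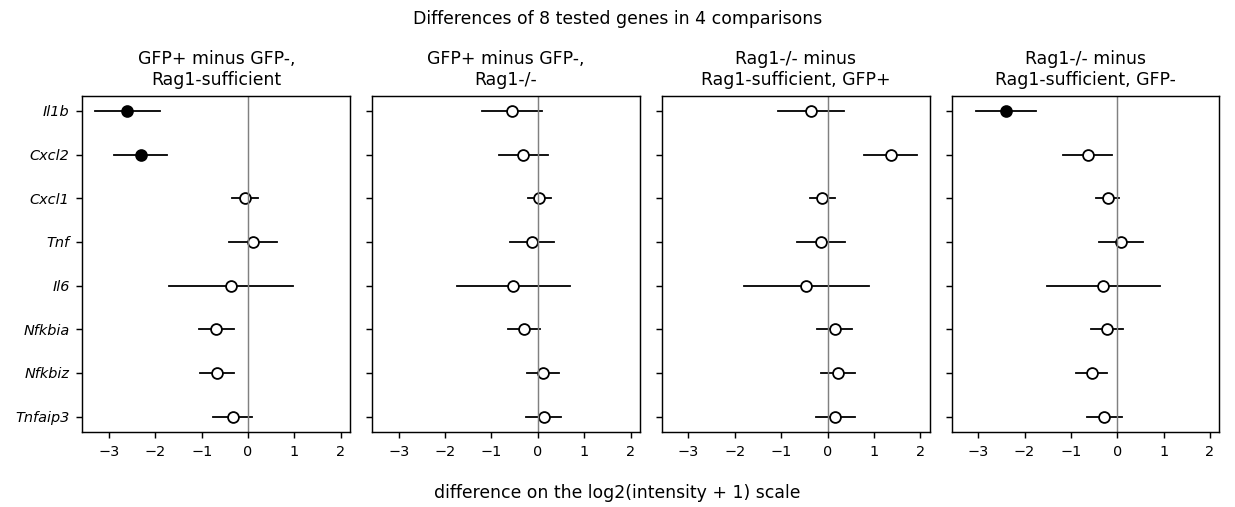
Differences of the 8 tested genes on the log2(intensity + 1) scale in 4 comparisons, with 95% intervals from the limma fit; filled points passed at an adjusted p under 0.05 and open points did not. Il1b passed in the first and the fourth panel and Cxcl2 in the first, and no gene passed in Rag1-/- mice.

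In Rag1-/- mice the same contrast of fractions called no gene of the set. Il1b differed by -0.56 ± 0.28 (adjusted p = 0.688) and Cxcl2 by -0.32 ± 0.23 (adjusted p = 0.708) between GFP+ and GFP- cells. The other 6 lay between -0.53 for Il6 and 0.12 for Tnfaip3, and all 8 genes had overlapping fractions, where 5.27% of all probe sets had GFP+ arrays wholly above and 10.1% wholly below the GFP- arrays. Over all probe sets limma likewise called 0, a share of 0%, with 1098 at an unadjusted p under 0.05. Without Rag1-/- GFP+ replicate 2 Il1b differed by -0.20. Without the array that stood apart, Rag1-/- GFP+ replicate 1, Il1b differed by -0.92 and Cxcl2 by -0.36, while Tnf turned from -0.12 to 0.25 and Cxcl1 from 0.03 to -0.03. None of the 8 passed in that fit, in which 7 probe sets did.

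Whether the contrast of fractions differed between genotypes was tested directly. The difference of the contrasts, Rag1-/- minus Rag1-sufficient, was 2.04 ± 0.42 for Il1b (adjusted p = 0.187), 2.0 ± 0.34 for Cxcl2 (adjusted p = 0.115) and 0.78 ± 0.22 for Nfkbiz (adjusted p = 0.256). None of these passed, nor did Nfkbia (0.39 ± 0.22), Tnfaip3 (0.45 ± 0.25), Cxcl1, Tnf or Il6. So the presence of a call in one genotype and its absence in the other was not shown to be a difference between genotypes. Over all probe sets limma called 0 (0%), with 2378 at an unadjusted p under 0.05. Without Rag1-/- GFP+ replicate 2 the value for Il1b was 2.40 and passed (adjusted p = 0.0429), in a fit that called 500 probe sets.

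Among GFP- cells, the CCR10- fraction, the genotypes were then compared. Il1b fell by 2.40 ± 0.28 in Rag1-/- cells (5.29-fold, adjusted p = 0.0246). This was 1 of 8 genes, lower, where 0.0917% of all probe sets passed as lower and 0.143% in either direction. Cxcl2 differed by -0.64 ± 0.23 (adjusted p = 0.233) and Nfkbiz by -0.56 ± 0.15 (adjusted p = 0.168). For Il1b, Cxcl2 and Nfkbiz all Rag1-/- arrays lay below both Rag1-sufficient arrays, 3 of 8 genes against 17.6% of all probe sets, and for Tnf they lay above, 1 of 8 against 23.0%. The Tnf difference itself was 0.08 ± 0.21 (adjusted p = 0.867). The 8 genes had a median of -0.29, against 0.00 over all probe sets. The Il1b call was lost without Rag1-sufficient GFP- replicate 1 (adjusted p = 0.0990) or replicate 2 (0.335), without Rag1-/- GFP- replicate 2 (0.0794) or replicate 3 (0.0859), and where only the compared arrays were fitted (0.0591), with a difference between -2.56 and -2.15 whichever array was left out. This comparison shares its 2 Rag1-sufficient GFP- arrays with the contrast of fractions above, so the Il1b values of the comparisons are not independent.

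In GFP+ cells the genotypes differed in the other direction for Cxcl2. Rag1-/- GFP+ cells had 1.36 ± 0.25 more Cxcl2 on the log2 scale (2.57-fold), with both Rag1-/- arrays above both Rag1-sufficient arrays, but the adjusted p was 0.117. None of the 8 genes passed, where 0.246% of all probe sets did in either direction. Nfkbia (0.16 ± 0.16), Nfkbiz (0.23 ± 0.16) and Tnfaip3 (0.17 ± 0.18) also had non-overlapping groups, higher in Rag1-/- cells, so that 4 of 8 genes did, against 11.0% of all probe sets. Cxcl1 had them in the opposite direction (-0.11 ± 0.12), as 18.5% of all probe sets did. Il1b differed by -0.36 ± 0.31 (adjusted p = 0.896). Without Rag1-/- GFP+ replicate 1 the difference was 1.32 for Cxcl2 and -0.72 for Il1b, and without Rag1-/- GFP+ replicate 2 it was 1.40 for Cxcl2 and -0.0076 for Il1b. None of these passed, and the Il1b value thus rested on single arrays. These arrays are also the GFP+ side of the contrasts of fractions.

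The wider pathway was read from lists of NF-kB subunits, kinases and adaptors, receptors, interleukin-1 processing genes and antagonists, feedback inhibitors and inflammatory targets. The lists named 78 further genes, of which 73 were on the array and 66 could be tested. In Rag1-sufficient mice 48 of the 66 had a lower mean in GFP+ than in GFP- cells, with a median of -0.14, where 8086 of the 17445 probe sets did so. In 35 of the 66 both GFP+ arrays lay below both GFP- arrays, against 21.2% of all probe sets, but a single gene passed, where 0.803% of all probe sets did. That gene was Ptgs2, the inducible cyclooxygenase of prostaglandin synthesis, which read 124 and 110 in GFP+ and 317 and 284 in GFP- cells. Ptgs2 fell by 1.35 ± 0.23 (adjusted p = 0.0420), and in Rag1-/- mice it read 310 and 398 in GFP+ and 362, 223 and 263 in GFP- cells. As for Cxcl2, the Rag1-sufficient GFP+ arrays were thus the dim group, and the other 7 arrays lay above them. Between genotypes in GFP+ cells Ptgs2 rose by 1.58 ± 0.23 in Rag1-/- cells (adjusted p = 0.0419). It was the only one of the 66 genes to pass there, where 0.246% of all probe sets did. Neither Ptgs2 call held when either Rag1-sufficient GFP+ array was left out (adjusted p = 0.207 and 0.262 between fractions, 0.224 and 0.365 between genotypes), nor without a filter on dim probe sets (0.0594 and 0.0651). Between fractions it was also lost without Rag1-sufficient GFP- replicate 1 (0.260) or 2 (0.254) and Rag1-/- GFP- replicate 2 (0.0539) or 3 (0.0614). Between genotypes it was lost without Rag1-sufficient GFP- replicate 1 (0.116) or 2 (0.117), Rag1-/- GFP+ replicate 1 (0.0992) or 2 (0.0757), Rag1-/- GFP- replicate 2 (0.0588) or 3 (0.0768), with array weights (0.0870), without the intensity trend (0.0561) and where only the compared arrays were fitted (0.560).

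By role, 19 of 22 inflammatory targets had a lower mean in GFP+ cells of Rag1-sufficient mice, with a median of -0.19. That median was -0.55 where the 50% dimmest probe sets were left out, which tests fewer of the list. Ccl2, a monocyte chemokine, read 99.9 and 99.9 in GFP+ and 190 and 146 in GFP- cells and differed by -0.73 ± 0.13 (adjusted p = 0.0542). Among subunits and IkB proteins 6 of 8 were lower, with a median of -0.25. Nfkbid, which like Nfkbiz encodes a nuclear IkB protein, read 447 and 375 in GFP+ and 724 and 699 in GFP- cells, and differed by -0.80 ± 0.15 (adjusted p = 0.0650), and Nfkbie, a cytoplasmic IkB gene, differed by -0.52 ± 0.17 (adjusted p = 0.243). Receptors were evenly split, 4 higher and 4 lower, and Il6st, the signalling chain shared by interleukin-6 family receptors, differed by -1.01 ± 0.19 (adjusted p = 0.0625). The interleukin-1 receptor accessory chain Il1rap differed by -0.37 ± 0.15 (adjusted p = 0.355). The 14 kinases and adaptors had a median of -0.05, with the IkB kinase gene Ikbkb at -0.39 ± 0.16 and the adaptor Bcl10 at 0.54 ± 0.19. Of the 9 feedback inhibitors 7 were lower, with a median of -0.12, among them Tnip1, a partner of A20 (-0.28 ± 0.15), and Zfp36, which destabilises cytokine mRNA (-0.36 ± 0.20). The 5 interleukin-1 processing genes and antagonists had a median of 0.04, with the receptor antagonist Il1rn at -0.08 ± 0.11 and the interleukin-18 binding protein Il18bp at -0.23 ± 0.15. Il1rn thus did not share the difference of Il1b.

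**Figure D3:**
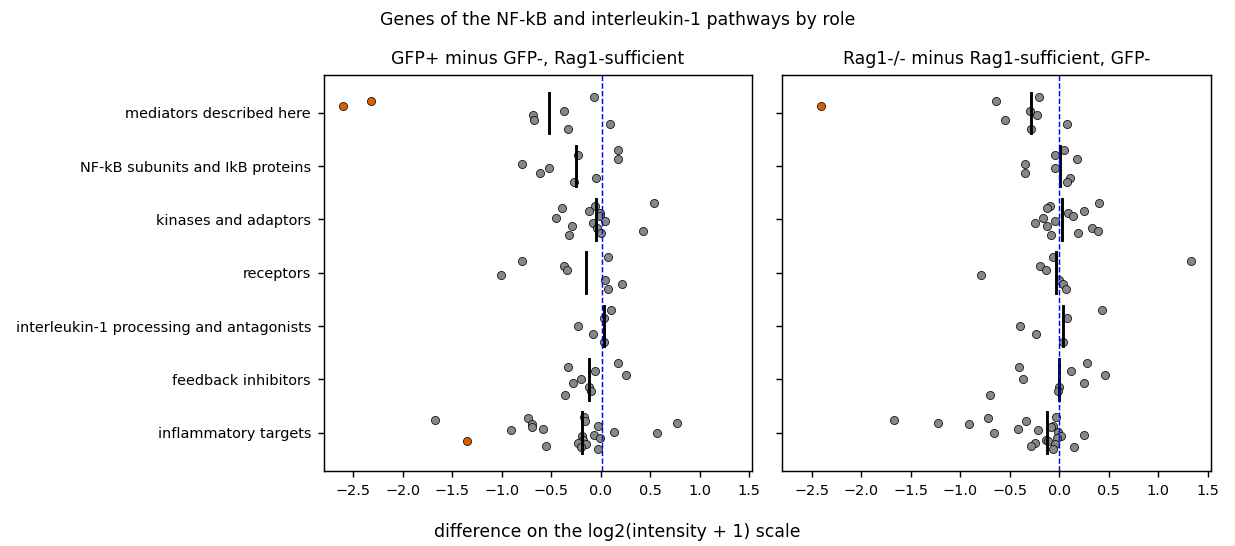
Differences on the log2(intensity + 1) scale of the tested genes by role, for GFP+ minus GFP- in Rag1-sufficient mice (left) and Rag1-/- minus Rag1-sufficient in GFP- cells (right); each point is a gene, the vertical bar is the median of its list, the dashed line is the median of all probe sets and orange points passed. On the left Il1b, Cxcl2 and Ptgs2 passed, on the right Il1b alone, and the list medians lie between -0.52 and 0.04.

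Between genotypes in GFP- cells none of the 66 pathway genes passed, where 0.143% of all probe sets did. Of the 66, 42 were lower in Rag1-/- cells, where 8709 of the 17445 probe sets were, and the median was -0.05. Among the inflammatory targets 19 of 22 were lower, with a median of -0.13. Ccl3, a chemokine of macrophages and T cells, read 161 and 279 in Rag1-sufficient GFP- cells and 63.7, 72.4 and 61.4 in Rag1-/- GFP- cells, and differed by -1.67 ± 0.29 (adjusted p = 0.0748). It was low in the GFP+ fractions as well, at 92.2 and 46.7 in Rag1-sufficient and 58.5 and 51.9 in Rag1-/- cells, so that like Il1b it was highest on the 2 Rag1-sufficient GFP- arrays. Ccl2 had the same high group (-0.73 ± 0.12, adjusted p = 0.0739). The decoy receptor Il1r2, which binds interleukin-1 without signalling, stood on the other side at 1.33 ± 0.37 (adjusted p = 0.174). Il1r2 read 1355, 1226 and 1376 in Rag1-/- GFP- cells and 564 and 484 in Rag1-sufficient GFP- cells, with no overlap. Il6st differed by -0.80 ± 0.17 and Zfp36 by -0.71 ± 0.18 (adjusted p = 0.122 and 0.160). The remaining leading genes were Rel, an NF-kB subunit (-0.35 ± 0.21), Nfkbid (-0.35 ± 0.14), Myd88, the adaptor of interleukin-1 and Toll-like receptors (0.39 ± 0.19), Bcl10 (0.40 ± 0.17), Otulin, which trims linear ubiquitin chains (0.46 ± 0.13), Il1rn (-0.24 ± 0.10) and Il18bp (-0.40 ± 0.14), none of which passed.

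Markers of other cell types were read beside these values. The 16 mast cell markers on the array summed to between 11103 and 11300 in Rag1-sufficient GFP- cells, 1206 and 1326 in Rag1-sufficient GFP+, 1658 and 5246 in Rag1-/- GFP+, and 5158 and 6499 in Rag1-/- GFP- cells. All 12 that were tested were lower in GFP+ cells of Rag1-sufficient mice with no overlap (21.2% of all probe sets), with a median of -1.94. Of these, 9 passed as lower, where 0.470% of all probe sets did. In Rag1-sufficient GFP- cells 15 of 16 lay above the limit of 41.6 units, against 7 or 8 in GFP+. Mast cell transcripts thus moved with Il1b and Cxcl2 in that contrast, and their part in the result was not tested. Most of the sum came from Cpa3, Mcpt4 and Kit where it was high, and single markers did not all run alike. The transporter gene Slc45a3 read 184 and 185 in Rag1-sufficient GFP- cells and between 95.1 and 114 on the other arrays. Mitf, a transcription factor of mast cells, read 95.4 and 98.6 there against 53.5 to 76.2, and Hdc, which makes histamine, 457 and 331 against 83.8 to 180, so that these 3 shared the high group of Il1b. They were picked after their values were seen. Kit, the receptor of stem cell factor, read 1386 and 1378 in Rag1-sufficient GFP- cells and up to 1600 in Rag1-/- GFP- cells. It was the only tested marker of the list whose groups overlapped between genotypes in GFP- cells. Rag1-/- GFP- arrays had mast cell sums of at least 5158 against at most 1326 on Rag1-sufficient GFP+ arrays, with Il1b in an overlapping range. Cxcl2 read 267 in Rag1-/- GFP+ replicate 2, where the mast cell sum was 1658, and 283 in replicate 1, where it was 5246. Between genotypes in GFP- cells 0 of the 12 mast cell markers passed, where 0.143% of all probe sets did. All 12 had a lower mean in Rag1-/- cells, with a median of -1.13. For 11 of the 12 all Rag1-/- arrays lay below both Rag1-sufficient arrays, against 17.6% of all probe sets.

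**Figure D4:**
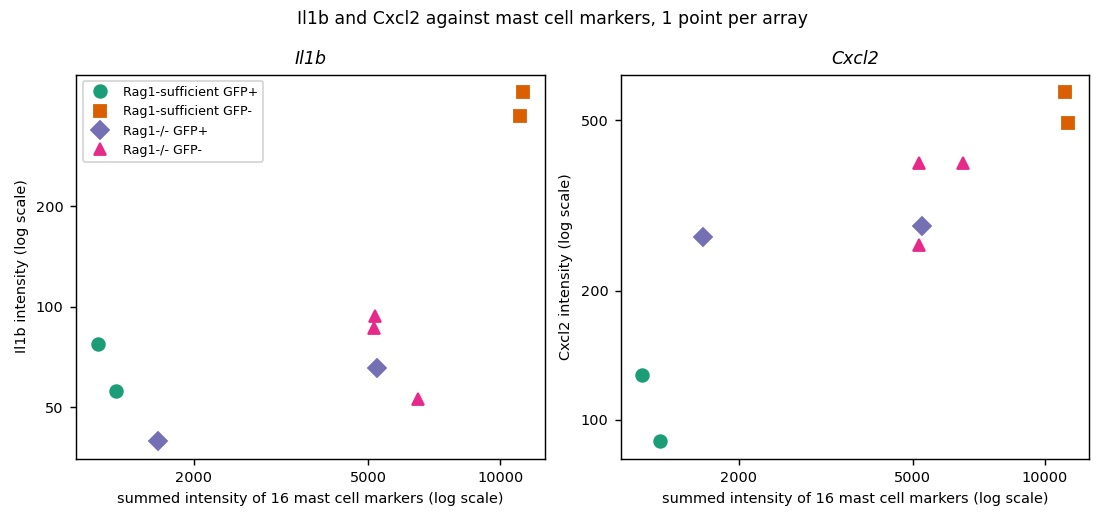
Intensity of Il1b (left) and Cxcl2 (right) against the summed intensity of 16 mast cell markers, both on log scales, 1 point per array and 1 symbol per group. The 2 Rag1-sufficient GFP- arrays are highest on both axes; the Rag1-/- arrays have Il1b between 39.6 and 94.1 and mast cell sums between 1658 and 6499, sums in which the brightest markers weigh most.

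The 12 macrophage and monocyte markers summed to between 829 and 851 in Rag1-sufficient GFP- cells and between 627 and 729 on all other arrays. In either comparison in which Il1b passed, 0 of the 8 tested passed, where 0.803% and 0.143% of all probe sets did. Between the Rag1-sufficient fractions 5 were lower in GFP+ cells, 3 with no overlap (21.2% of all probe sets). The other 3 were higher, all with no overlap (29.0%), and the median was -0.15. Between genotypes in GFP- cells 6 were lower in Rag1-/- cells, 3 with no overlap (17.6%). There 2 were higher, 0 with no overlap (23.0%), and the median was -0.27. Of the 11 neutrophil markers 2 to 4 per array lay above the limit, and S100a8, S100a9 and Ly6g, which define the type, were below it on average and left untested. The 11 dendritic and Langerhans cell markers summed to between 1630 and 1923, a sum made up largely of Ccr7, which read 842 to 1199 and is not particular to these cells. On the Rag1-sufficient GFP- arrays 10 and 11 of the 11 lay above the limit, against 8 or 9 on the others. Both of these arrays were highest of all for Flt3 (64.9 and 66.5, against at most 50.5) and Cd209a (101 and 144, at most 92.8), as they were for Il1b. They were also highest for Clec9a (36.1 and 58.0, at most 32.1) and Cd207 (44.0 and 44.4, at most 39.9). Clec9a and Cd207 were below the limit of 41.6 units on average, however, and were left untested. Both arrays were highest as well for the chemokine receptor gene Xcr1 of cross-presenting dendritic cells. Xcr1 read 68.2 and 65.0 there and between 38.2 and 42.9 elsewhere. Not all markers of the list ran this way. Of the 9 tested, 8 had a lower mean in GFP+ cells of Rag1-sufficient mice, 6 with no overlap (21.2% of all probe sets). The other 1 was higher with no overlap (29.0%). Between genotypes in GFP- cells 5 were lower in Rag1-/- cells, 4 with no overlap (17.6%), and 4 were higher, 2 with no overlap (23.0%). Xcr1 alone of the 9 tested passed, as lower, in both comparisons in which Il1b passed (-0.78 and -0.72, adjusted p = 0.00843 and 0.0125). Of all probe sets 0.470% and 0.0917% passed as lower there. Keratinocyte markers summed to 2871 and 4482 in Rag1-sufficient GFP- cells and to between 1727 and 2831 on the other arrays. In these comparisons 0 of the 9 tested passed, where 0.803% and 0.143% of all probe sets did. All 9 had a lower mean in GFP+ cells of Rag1-sufficient mice, 5 with no overlap (21.2% of all probe sets), with a median of -0.66. Between genotypes in GFP- cells 8 were lower in Rag1-/- cells and 1 higher, with a median of -0.94. There 5 were lower with no overlap (17.6% of all probe sets). T cell markers summed to between 2258 and 2322 in Rag1-sufficient GFP- cells, 2936 and 3588 in Rag1-sufficient GFP+, and 3811 and 7415 in Rag1-/- cells, lowest where Il1b was highest. Every sample was sorted as negative for CD3 and CD5 and T cell content was not tested, so these sums cannot be read as an amount of T cells. The sums were highest in Rag1-/- cells, which lack the recombinase that T cells need. Fibroblast markers (860 to 1738) and basophil and eosinophil markers (192 to 240) had no group that stood apart from all others. Between genotypes in GFP- cells, however, all 7 fibroblast markers had a lower mean in Rag1-/- cells, with a median of -0.39. For 6 of them the groups did not overlap (17.6% of all probe sets), and 0 passed (0.143%). The part of any of these cells in the results was not tested.

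The genes whose levels over the 9 arrays were most like those of Il1b were Wdfy4 (Pearson r = 0.991), Slc45a3 (0.985), Tbc1d9 (0.979), Aff3 (0.973) and Alox5ap (0.973), which encodes the activating protein of leukotriene synthesis. Slc45a3 is also on the list of mast cell markers. Wdfy4 read 90.3 and 92.5 in Rag1-sufficient GFP- cells and between 49.4 and 60.5 on the other arrays, a smaller step than that of Il1b. Cxcl2 was most like Vwa5a (r = 0.974), Lilrb4a (0.954), Plxdc2 (0.949), Nfkbid (0.947) and Ahnak (0.947). Lilrb4a, an inhibitory receptor of myeloid and mast cells, read 69.7 and 47.6 in Rag1-sufficient GFP+ cells and between 131 and 365 elsewhere. Within the set, Cxcl2 had a correlation of 0.87 with Nfkbia and 0.77 with Nfkbiz, and Il1b one of 0.77 with Nfkbiz, 0.66 with Nfkbia, 0.61 with Cxcl1, 0.58 with Cxcl2 and -0.19 with Tnf. These correlations are descriptions over 9 arrays in 4 groups that share the group differences, and the neighbours are the highest of all tested probe sets.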

How the data were processed

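RNA of 9 sorted samples was hybridised to Affymetrix arrays as biotinylated single-stranded DNA, per the labels. The values the authors deposited are linear intensities, 1 for each probe set on each array. MAS5 is named, without version or role, in the submitters' processing notes, and how arrays were normalized is not given in the sources used here, nor is a genome build. Of 24922 probe sets, 21425 had 1 gene symbol in the platform annotation, 1399 several and 2098 none. Some genes had exactly equal values on several arrays, such as Il1a on 3. Tests used log2(value + 1), so a dim gene's change is understated. Probe sets in the lowest 30% by mean log2 value (under about 41.6 units) were left out, and a model with 1 mean per group was fitted to 17445 sets by lmFit and eBayes with trend (limma 3.58.1, R 4.3.3, with 5 residual degrees of freedom and 3.56 prior ones). Tests were two-sided, with the Benjamini-Hochberg adjustment over all sets tested, with 0.05 as the threshold. The script was tested on simulated data. Precision is limited by the number of arrays.

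The members, the lists and the comparisons were chosen with earlier results of these data known. All members are named. Other genes of the pathway lists are named where they passed, or where they were among the 2 with the smallest p of their list in the comparison described, and pattern neighbours are the 5 genes with the highest Pearson r, leaving out members, predicted genes and Riken clones. A gene with several sets was read through the brightest. Genes of the cell type marker lists are named outside that rule, after their values were seen. Alternatives were another pseudocount, other filters, quantile normalization, array weights, no trend, a replicate block, only the compared groups, and leaving out each array.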

Additional observations from a re-analysis of the deposited data

How the results depend on the processing

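Between the Rag1-sufficient fractions Il1b stayed lower in GFP+ cells in all 17 other fits (8 other settings and 9 that each left out 1 array). It passed in 8 of the 8 other settings. Cxcl2 passed in 7 of 8, and Il1b between genotypes in GFP- cells in 6 of 8, each with the same sign in all 17. Leaving out an array outside a comparison cannot change its difference, so such fits do not test it. Between the Rag1-sufficient fractions both calls were lost whenever a compared array was left out. Where 1 of 2 arrays was left out, the lone array was assumed to vary like the other groups. Nfkbia passed between the Rag1-sufficient fractions under quantile normalization and array weights (adjusted p = 0.0231 and 0.0136), and Nfkbiz under array weights (0.0168). In the same comparison Nfkbid passed in 5 of the 17 fits (0.0065 to 0.0472), Ccl2 in 5 (0.0118 to 0.0486) and Il6st in 4 (0.0086 to 0.0488). Between genotypes in GFP- cells Nfkbiz (0.0280), Il6st, Ccl2, Ccl3, Zfp36 and Il1r2 passed under array weights, Il1r2 also in 2 fits and Zfp36 in 1 fit that left out an array. The labels do not say whether the replicate numbers pair the samples. The deviations of same-numbered arrays from their group means had a correlation of 0.05 between the Rag1-sufficient fractions and -0.09 between the GFP+ groups. It was 0.24 between Rag1-sufficient GFP- and Rag1-/- GFP+, -0.17 and 0.014 between the GFP- groups, and -0.45 to 0.0022 for the other pairs. In a group of 2 arrays the deviations mirror each other, so these values cannot decide whether samples were paired. With the replicate block the adjusted p of Il1b between genotypes in GFP- cells was 0.102 and Ptgs2 did not pass in either of its comparisons.

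The number of probe sets called moved more. Between the Rag1-sufficient fractions it was 140, with 1290 under array weights, 73 with the replicate block and 3 to 335 when an array was left out. In Rag1-/- mice it was 0, with 0 to 7 when an array was left out. Between genotypes in GFP+ cells it was 43, with 17 under quantile normalization, 3 without the intensity trend, 2 with the replicate block, 0 with only the compared groups and 1 to 135 when an array was left out. In GFP- cells it was 25, with 43 at log2(intensity + 16), 9 with the 50% dimmest sets left out, 1168 under array weights, 6 with the replicate block, 8 with only the compared groups and 1 to 139 when an array was left out. For the difference of the contrasts it was 0, with 1 with the 50% dimmest sets left out, 1 under quantile normalization, 31 under array weights and 0 to 500 when an array was left out, and a fit of only the compared groups was not run because it needs all 4. The cause of these shifts was not tested.

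Reversals concerned small, uncalled differences. Under quantile normalization Tnf was at -0.073 between the Rag1-sufficient fractions, 0.020 between the Rag1-/- fractions, -0.12 between genotypes in GFP- cells and 0.093 for the difference of the contrasts. With the replicate block Il6 was at 0.061 between the Rag1-/- fractions and 0.43 for the difference of the contrasts (0.077 under array weights), and Tnfaip3 at -0.035 between the Rag1-/- fractions. Leaving out an array gave ranges that crossed 0 as follows. Between the Rag1-sufficient fractions they were -0.18 to 0.047 for Cxcl1, -0.015 to 0.21 for Tnf, -0.77 to 0.028 for Il6 and -0.21 to 0.057 for Il1rn. Between the Rag1-/- fractions they were -0.030 to 0.097 for Cxcl1, -0.48 to 0.25 for Tnf, -1.01 to 0.061 for Il6 and -0.035 to 0.27 for Tnfaip3. Between genotypes they were -0.50 to 0.23 for Tnf and -0.93 to 0.023 for Il6 in GFP+ cells, and -0.89 to 0.020 for Il6 in GFP- cells. For the difference of the contrasts they were -0.014 to 0.21 for Cxcl1, -0.58 to 0.15 for Tnf and -0.64 to 0.43 for Il6.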
